A study of Pyronema omphalodes CBS 100304 with 9 samples.

Results

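Sexually developing mycelium of the fungus Pyronema omphalodes (Pyronema confluens) was compared with a pooled vegetative mycelium by RNA sequencing, gene by gene. The comparison takes every gene model with at least 10 read counts in 2 or more of the 4 libraries concerned, and 11493 of the 13369 models in the deposited table met this. Sexual mycelium (2 libraries) grew on the surface of WPC medium in constant light, and its RNA was pooled from days 3, 4 and 5. The vegetative pool (2 libraries) mixed RNA of 3 cultures, each grown for 3 d: submerged in WPC in constant light, submerged in WPC in constant darkness, and on the surface of BMM in constant darkness. A second vegetative mycelium (2 libraries), grown on the surface of WPC in constant darkness and pooled from days 3, 4 and 5, is set beside them for level. Laser-dissected protoapothecia (3 libraries, linearly amplified RNA, day 4), the young fruiting bodies, entered the shared estimate of spread and 1 look-up. No genetic change is named for any group. Light, submersion, medium and days of growth all differ between sexual mycelium and at least part of the pool, so their shares in any difference cannot be told apart. Each mycelium library is labelled as belonging to a set of technical replicates, and nothing says that the libraries of a group came from separate cultures, so p-values may measure technical spread. These are bulk samples, in which fewer cells of a type and less RNA per cell cannot be told apart.

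Pyronema is a member of the Pezizomycetes, the early-branching cup fungi among the filamentous ascomycetes. It needs light to form its orange apothecia, the open fruiting bodies in which meiosis and ascospore formation take place, and it is self-fertile, with both mating-type genes in its genome. In submerged culture or in darkness it grows as vegetative hyphae.

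Levels are given as CPM, counts scaled to the depth of each library by trimmed-mean factors, always with replicate 1 before replicate 2. Changes are log2 differences, sexual mycelium minus pool, with their standard error (SE) and a p-value adjusted over all 11493 genes. "Higher" and "lower" are used of genes whose adjusted p fell below 0.05. The sexual mycelium libraries held 17221767 and 22132904 counts, and the pool libraries 19887119 and 14473365. Across genes, log2 CPM correlated at 0.977 between the sexual mycelium libraries and at 0.980 between the pool libraries. Between the groups the correlation was 0.756 to 0.788, and between the pool and dark vegetative mycelium it was 0.940 to 0.956.

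In sexual mycelium 2329 genes were higher (20.3% of those tested) and 1128 were lower (9.81%). Tested against a fold of 2, 1829 were higher (15.9%) and 545 lower (4.74%). The median size of the change was 4.14 on the log2 scale among higher genes, with genes at 0 in the pool set to a lower bound, against 1.93 among lower genes, and 562 higher but 15 lower genes were past 64-fold on that count. The median change over all genes tested was 0.04. Detection differed with it: 285 genes had no count in either pool library, against 1 gene with none in sexual mycelium. The minimum count was met through sexual mycelium alone by 1435 genes, of which 1225 were higher, and through the pool alone by 73 genes, of which 54 were lower, so that the minimum itself fixed the direction of these genes. The higher genes took 15.2% and 16.3% of all counts in the sexual mycelium libraries but 1.99% and 2.21% in the pool. The lower genes took 7.21% and 7.71% in sexual mycelium and 24.8% and 23.1% in the pool. The number of lower genes depended on single libraries and on the samples in the fit: it was 523 without sexual mycelium replicate 1, 662 without its replicate 2, 705 without pool replicate 1, 768 without pool replicate 2, 1777 with the 4 libraries alone and 2080 with the 6 mycelium libraries. The number of higher genes ran from 1626 to 2869 over the same fits. Many counts within gene lists moved with it; below, counts with 1 library left out stand in this order: without sexual mycelium replicate 1, without its replicate 2, without pool replicate 1, without pool replicate 2. Among the 2329 higher genes 386 differed by more than a fold of 2 between the sexual mycelium libraries, and in 317 of these replicate 2 was the higher one.

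**Figure D1:**
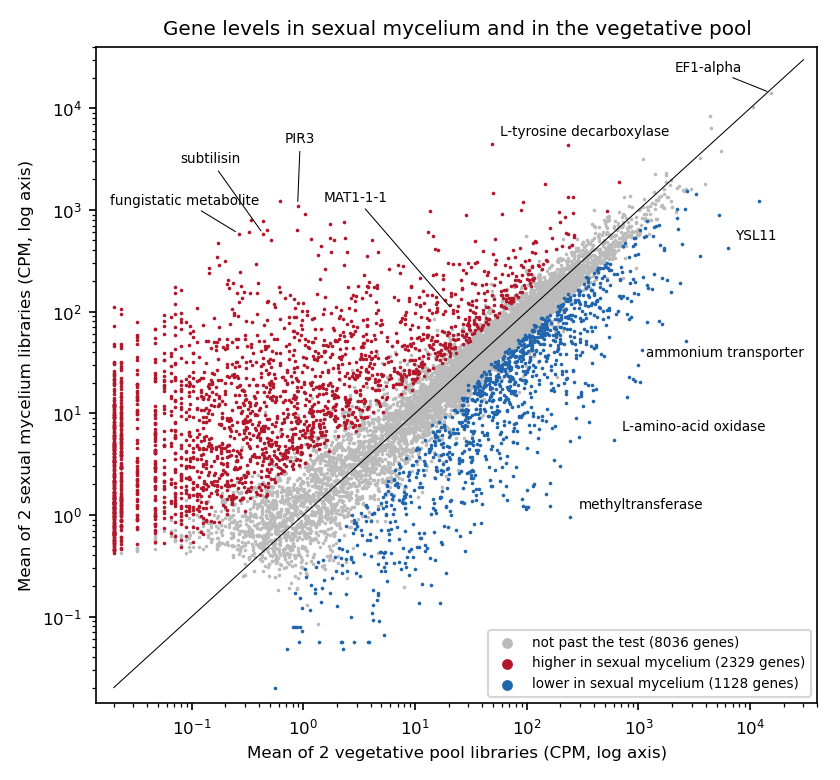
Mean level of each tested gene in the vegetative pool (horizontal, CPM, log axis) and in sexual mycelium (vertical, CPM, log axis), each point 1 gene and the line equal levels; means of 0 are drawn at the left or lower edge. The 2329 higher genes (red) reach the left edge, where the pool has no counts, and 1 of the 1128 lower genes (blue) has no count in sexual mycelium.

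Several described genes were near the detection limit in both vegetative mycelia and abundant in sexual mycelium. PCON_07851, described as a putative fungistatic metabolite, had 578 and 587 CPM in sexual mycelium, 0.141 and 0.389 in the pool and 0.603 and 0.770 in dark vegetative mycelium (log2 change 11.15 ± 0.52 SE, adjusted p = 9.85e-06). PCON_01303, a subtilisin-like serine protease, had 600.0 and 551 CPM against 0.422 and 0.454 (10.34 ± 0.41 SE, adjusted p = 7.01e-06). PCON_03867, named after the carbohydrate-responsive element-binding protein of animals, had 291 and 399.8 CPM against 0.141 and 0.194 (10.98 ± 0.58 SE, adjusted p = 9.85e-06). In these 3 genes both sexual mycelium libraries stood far above all 4 vegetative libraries. L-tyrosine decarboxylase PCON_12394, an enzyme that turns tyrosine into tyramine, named for its high CPM (which is not per length), had 4938 and 3919 CPM against 46.9 and 50.9 in the pool and 6.10 and 12.6 in the dark (6.5 ± 0.47 SE, adjusted p = 3.54e-05). The fucose-specific lectin PCON_04233, a sugar-binding protein named for the same reason, had 4795 and 3806 CPM against 214 and 258 (4.19 ± 0.39 SE, adjusted p = 0.000109). Its dark vegetative level was 7.44 and 11.5 CPM, below the pool. Of the 3 tested models described as L-tyrosine decarboxylase, PCON_12394 among them, 1 was higher and 2 were lower (median log2 change -4.35). Among all genes tested 20.3% were higher and 9.81% lower. The other genes named for their CPM in sexual mycelium were 2 models of elongation factor 1-alpha (PCON_04930 and PCON_11298) and the heat shock protein of 70 kDa PCON_06550, none past the test (adjusted p = 0.858, 0.932 and 0.214). How reads of similar copies were divided is not given in the sources used here, so values of genes that share a description, such as these, PIR3, con-6 and peritrophin, are uncertain between copies.

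Some genes had no count at all in the pool, for which a fold is a lower bound set by a floor of 3 counts over both pool libraries. Peritrophin-1 PCON_09947, named after a chitin-binding protein of the insect gut lining, had 21.1 and 26.4 CPM and was at least 291-fold higher (adjusted p = 0.000638). The secreted metalloprotease neutral protease 2 PCON_05965 had 18.1 and 25.4 CPM and was at least 267-fold higher (adjusted p = 0.000354). The ubiquitin ligase PCON_03364, described as TRIM31, had 13.2 and 26.7 CPM, at least 244-fold higher (adjusted p = 0.00409), and PCON_06717, a small GTPase of the ADP-ribosylation factor group, 7.51 and 16.6 CPM, at least 148-fold higher (adjusted p = 0.0196). None of the 4 had a count in dark vegetative mycelium except PCON_05965, at 0.268 and 0 CPM. Others had 1 to 3 counts in the pool: the RNA polymerase II-associated protein 3 model PCON_11542 at 67.2 and 116 CPM in sexual mycelium, the RCC1 and BTB domain protein PCON_11137 at 47.1 and 47.8, and the metacaspase PCON_10488, a cysteine protease of a family tied to cell death in fungi, at 33.1 and 53.9 (adjusted p = 0.000127, 3.76e-05 and 0.00294). Of the 5 metacaspase models tested, a family picked after its values were seen, 4 were higher and none lower. The shares over all genes were 20.3% and 9.81%. Genes with no count or 1 to 3 counts in the pool, PCON_10488 among them, met the minimum count through sexual mycelium alone, which fixed their direction. Of the 2 genes without a described product and with the largest rise, PCON_12872 reached 53.0 and 92.0 CPM and PCON_12201 23.0 and 73.5, at least 888-fold and 591-fold above the pool (adjusted p = 0.000167 and 0.000542).

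The gene lists were matched on product descriptions. A described product here is any that the annotation does not call a protein of unknown function, so models called only hypothetical are included. Of the 7556 tested genes with a described product 10.1% were higher and 11.2% lower. Over all genes the shares were 20.3% and 9.81% and the median log2 change 0.04. Of 39 fungal cell wall genes tested, 7 were higher (17.9%) and 5 lower (12.8%), with a median of -0.08. With 1 library left out the lower count was 2, 3, 2 and 3, and with the 6 mycelium libraries 11. All 3 models of PIR3, a mannoprotein linked to wall glucan in yeast, were higher. PCON_11160 had 758 and 1444 CPM against 1.13 and 0.648 (10.24 ± 1.47 SE, adjusted p = 0.00088), PCON_13945 534 and 1009 against 0.610 and 0.259 (10.71 ± 2.26 SE, adjusted p = 0.0063), and PCON_03885 118 and 210.4 against 0.0938 and 0.0648, where the pool value is 3 counts (adjusted p = 8.85e-05). Among the other called wall genes, picked after their values were seen, the related mannoprotein CIS3 PCON_07292 had 400.5 and 859.7 CPM against 1.03 and 0.713 (9.47 ± 2.09 SE, adjusted p = 0.0079), and the endochitinase PCON_11242, a chitin-cleaving enzyme, 132 and 245 against 0.281 and 0.130 (9.73 ± 1.17 SE, adjusted p = 0.000555). In these 5 genes replicate 2 of sexual mycelium was the higher library, and the pool and sexual mycelium values did not overlap. The calls of PCON_13945 and PCON_07292 were lost without either pool library. Another endochitinase went the other way: PCON_11068 had 2.81 and 3.19 CPM in sexual mycelium and 166 and 234 in the pool, with 9.45 and 11.5 in the dark (-6.05 ± 0.39 SE, adjusted p = 2.14e-05). The chitin synthase export chaperone PCON_06072, which moves chitin synthase out of the endoplasmic reticulum, was lower at 48.9 and 46.3 CPM against 127 and 154 (-1.56 ± 0.22 SE, adjusted p = 0.000841), as was the glucan-remodelling enzyme GAS4 PCON_03782 at 159 and 165 against 383 and 387 (-1.25 ± 0.37 SE, adjusted p = 0.0305), a call that was lost with median-ratio scaling.

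Of 40 meiosis and recombination genes tested, 11 (27.5%, against 20.3% of all genes) were higher and 1 was lower, with a median change of 0.26. With 1 library left out, 10, 7, 8 and 5 were higher, and with the 6 mycelium libraries 18. The 3 largest changes among members with at least 10 CPM were in regulators and a coiled-coil protein. Mei2 PCON_07771, in fission yeast the RNA-binding protein that starts meiosis, had 132 and 250.5 CPM against 0.141 and 0.324 in the pool and 0.268 and 0.385 in the dark (9.71 ± 0.88 SE, adjusted p = 9.31e-05). RIM4 PCON_12941, an RNA-binding meiotic activator of budding yeast, had 69.9 and 116 CPM against 0.281 and 0.194 (8.54 ± 0.65 SE, adjusted p = 4.36e-05). Meiotic coiled-coil protein 2 PCON_06031, named after a meiotic gene of fission yeast, had 344 and 659 CPM against 0.563 and 0.454 (9.91 ± 1.51 SE, adjusted p = 0.00119). As with the wall mannoproteins, replicate 2 was the higher sexual mycelium library in all 3. Mei2 and RIM4 had under 10 counts in each pool library, and 1 member of the list had no pool count. These genes met the minimum count through sexual mycelium alone, which fixed their direction. How many of the 11 higher genes did so was not counted. Of the other members called, 3 recombination genes and a transcription factor are given here, picked after their values were seen. SPO11 PCON_04896, which makes the double-strand breaks, had 2.81 and 4.83 CPM against 0.563 and 0.324 (3.07 ± 0.65 SE, adjusted p = 0.00651). DLH1 PCON_03294, a strand-exchange protein, had 7.70 and 10.5 against 0.985 and 0.454 (3.63 ± 0.79 SE, adjusted p = 0.00752), and the checkpoint kinase mek1 PCON_03213 7.27 and 12.6 against 2.58 and 0.972 (2.46 ± 0.56 SE, adjusted p = 0.00904). NDT80 PCON_08807, in yeast the transcription factor for exit from pachytene, was already present in the pool at 149 and 149 CPM and reached 381 and 404 (1.40 ± 0.33 SE, adjusted p = 0.0108). The 1 lower gene was PCON_05661, described as meiotically up-regulated gene 14, at 258 and 229.9 CPM against 359.8 and 503 (-0.82 ± 0.23 SE, adjusted p = 0.0219). The calls of SPO11 and DLH1 were lost without pool replicate 2, and those of mek1, NDT80 and PCON_05661 without at least 2 of the 4 libraries in turn. Summed over the 40 genes, the list stood at 5186 and 5538 CPM in sexual mycelium, 3437 and 3627 in the pool and 4317 and 4352 in the dark.

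Of 7 mating and pheromone genes, 3 were higher (42.9%, against 20.3% of all genes) and none lower (median 0.14). MAT1-1-1 PCON_07491, the alpha-domain mating-type regulator, had 118 and 89.7 CPM against 21.5 and 21.9 in the pool and 27.7 and 24.8 in the dark (2.26 ± 0.33 SE, adjusted p = 0.00093). Both pheromone receptors had 1 count each over the 2 pool libraries. They therefore met the minimum count through sexual mycelium alone, which fixed their direction, and both are among the 3 higher genes. PCON_08875, described as a pheromone B alpha 3 receptor, had 4.90 and 5.61 CPM in sexual mycelium (adjusted p = 0.000734), and PCON_02097, described as a pheromone alpha factor receptor, had 3.00 and 2.38 (adjusted p = 0.00211). The 4 others did not pass the test. The opposite mating-type gene a-1 PCON_08389 had 197 and 131 CPM against 143 and 154 (adjusted p = 0.794), the pheromone receptor transcription factor PCON_08725 392 and 283 against 382 and 427 (adjusted p = 0.494), the factor exporter mam1 PCON_02811 9.18 and 9.36 against 8.58 and 9.07 (adjusted p = 0.902), and the processing protease KEX1 PCON_03828 37.3 and 43.7 against 54.7 and 51.4 (adjusted p = 0.233). The summed level of the list did not separate the groups, at 761 and 565 CPM in sexual mycelium and 610.4 and 663 in the pool.

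None of the 9 developmental regulators passed the test (median 0.23). They comprise the 4 models described as steA, in Aspergillus a regulator of sexual reproduction, of which PCON_10415 had 861 and 616 CPM against 486 and 509, PCON_08877 405 and 344 against 489 and 424, PCON_01154 45.3 and 44.3 against 36.7 and 28.5 and PCON_08484 17.3 and 18.1 against 28.7 and 22.4 (adjusted p from 0.198 to 0.632). The list also holds the regulators of conidiation in Aspergillus wetA PCON_02676 (61.2 and 66.0 CPM against 80.6 and 120.0, adjusted p = 0.0733), flbA PCON_02904 (70.8 and 71.0 against 82.4 and 91.4, 0.512), abaA PCON_12773 (50 and 44.6 against 40.2 and 40.2, 0.791) and stuA PCON_09042 (596 and 457 against 458 and 425, 0.533). Of these, wetA had its highest mycelium level in the dark, at 470.1 and 524 CPM. The remaining member, fruiting body protein SC7 PCON_04524, varied within both groups, at 175 and 63.8 CPM in sexual mycelium and 24.9 and 102 in the pool, and the groups overlapped (adjusted p = 0.392). Its dark level was 0.268 and 1.03 CPM.

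The NADPH oxidase and striatin complex list of 5 genes held 1 higher and 1 lower (20% each, against 20.3% and 9.81% of all genes). These oxidases make superoxide and are needed for fruiting body formation in several ascomycetes. Of the 2 oxidase models, PCON_03267 was lower at 10.2 and 6.20 CPM against 61.2 and 78.5 in the pool and 151 and 130.1 in the dark (-3.09 ± 0.44 SE, adjusted p = 0.000829), while PCON_03126 had 123 and 117 against 127 and 125 (adjusted p = 0.916). The NADPH oxidase activator PCON_05808 was higher, at 10.7 and 11.5 CPM against 0.188 and 0.454 (5.13 ± 0.78 SE, adjusted p = 0.00121). Striatin, the scaffold of the complex, did not pass the test in either model, PCON_13421 at 93.9 and 93.2 against 122 and 131 (adjusted p = 0.255) and PCON_03897 at 37.7 and 34.8 against 24.7 and 43.0 (adjusted p = 0.963).

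Of 5 light-sensing genes 1 was higher (20%, against 20.3% of all genes). This was the cryptochrome DASH PCON_04123, a blue-light flavoprotein, at 26.3 and 34.3 CPM against 3.24 and 5.25 in the pool and 3.95 and 7.77 in the dark (2.84 ± 0.46 SE, adjusted p = 0.00169). White collar 1 PCON_03119 (24.0 and 31.5 CPM against 26.3 and 19.9), its partner white collar 2 PCON_05086 (115 and 112 against 138 and 136), the clock protein frequency PCON_09365 (157 and 125 against 179 and 163) and the phytochrome PCON_06747 (216 and 164 against 160.3 and 129) did not pass, with adjusted p from 0.381 to 0.59. None of the 3 carotenoid genes passed either, and their libraries overlapped in 2 of 3. Phytoene dehydrogenase PCON_03421 had 364 and 263 CPM against 195 and 371 (adjusted p = 0.853), and the lycopene cyclase and phytoene synthase PCON_03423 65.7 and 57.6 against 42.0 and 89.2 (adjusted p = 0.935). In dark vegetative mycelium the same genes stood at 10.6 and 23.2 CPM and at 1.21 and 3.79 CPM. Geranylgeranyl pyrophosphate synthase PCON_05718, which supplies their substrate, had 61.1 and 66.1 CPM against 95.4 and 98.0 (adjusted p = 0.164). Between dark vegetative mycelium and the pool, a comparison that shares the pool libraries, all 3 were lower in the dark, where 3.52% of all genes were lower. The pool contains RNA of 1 light-grown culture.

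The conidiation protein con-6, a small protein of asexual spores in Neurospora, changed in both directions. All 3 tested models passed the test: 2 were higher and 1 was lower (median 6.94, or 6.35 with the gene at 0 set to its bound). The shares over all genes were 20.3% and 9.81%. PCON_11571 had 12.2 and 18.0 CPM in sexual mycelium, 82.4 and 76.7 in the pool and 549 and 748 in the dark (-2.39 ± 0.39 SE, adjusted p = 0.0016). PCON_11576 had 4.14 and 31.5 CPM against 0.0938 and 0.194 (6.94 ± 1.19 SE, adjusted p = 0.00222), and PCON_11572, named after its values were seen, had 1.62 and 11.7 CPM with no count in either vegetative group, at least 81.8-fold higher (adjusted p = 0.00521). In both higher models the level lay mostly in sexual mycelium replicate 2. Both met the minimum count through sexual mycelium alone, which fixed their direction.

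**Figure D2:**
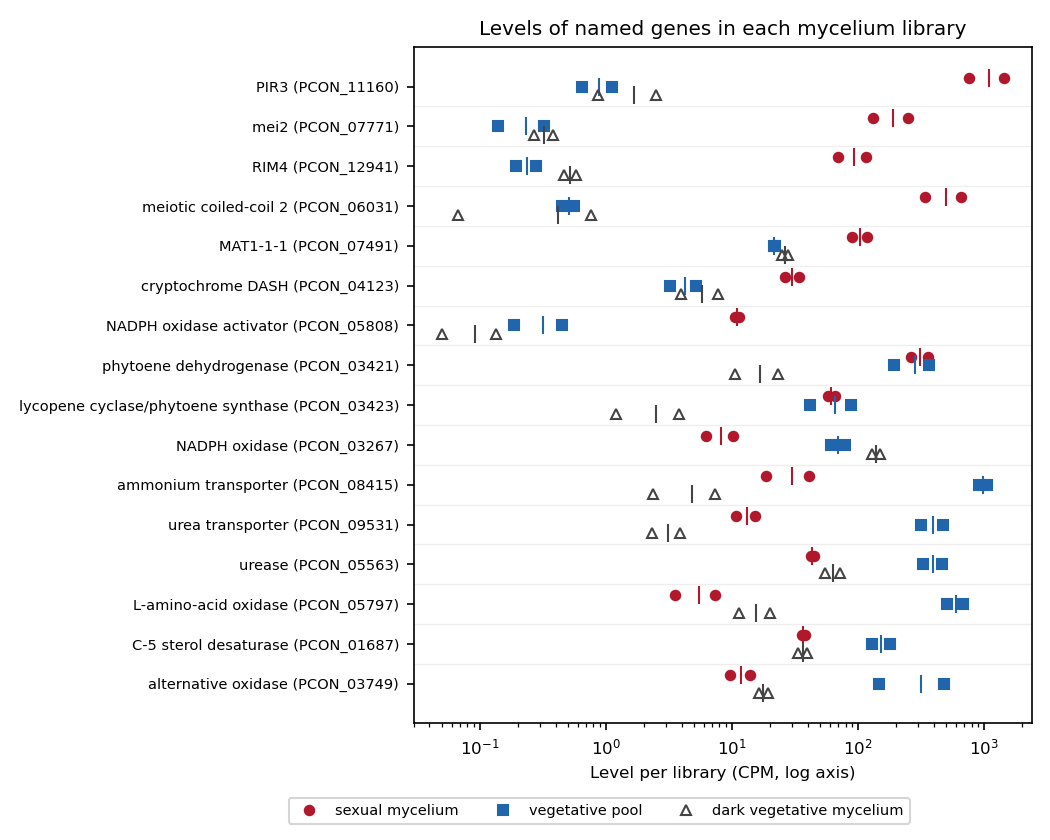
Level of 16 named genes in each mycelium library (CPM, log axis; values of 0 drawn at 0.05), each symbol 1 library and the vertical tick the mean of a group's 2 libraries. PIR3, mei2, RIM4 and meiotic coiled-coil protein 2 lie within or under a few CPM in both vegetative groups, the 2 carotenoid genes are lowest in the dark, and the ammonium, urea and amino acid genes are highest in the pool.

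Most of the higher genes were models that the annotation calls a protein of unknown function. Of 3937 such models tested, here called undescribed, 1566 (39.8%) were higher and 279 (7.09%) lower, against 763 (10.1%) and 849 (11.2%) of the 7556 others, which include models called only hypothetical. The minimum count bears on these shares, since undescribed models had few reads in the pool (median 1.18 CPM, not per length, against 42.9 for the others). Of all higher genes 1225 met it through sexual mycelium alone, which fixed their direction. At a mean of at least 10 CPM over the 4 libraries, 39.4% of 1152 undescribed and 7.38% of 6297 other genes were higher. That split uses the same libraries and does not remove genes counted in sexual mycelium alone. By predicted peptide length, 28% of undescribed genes up to 100 residues, 44.4% above that and up to 200, 51.2% up to 400, 46.0% up to 800 and 57.8% of the 102 models above 800 residues were higher. In described genes the same shares ran from 7.95% to 13.9%. By the predicted place of the protein (the first call of WoLF PSORT in the authors' annotation), 996 genes were called secreted and 3916 nuclear. Of the secreted ones 308 were higher (30.9%) and 202 lower (20.3%), and of the nuclear ones 886 (22.6%) and 227 (5.80%). Over all genes 20.3% were higher and 9.81% lower. Among described genes 20.2% of secreted and 8.87% of nuclear ones were higher, and 23.9% and 5.22% lower. Among undescribed genes 48.9% and 41.8% were higher, and 14.2% and 6.59% lower.

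**Figure D3:**
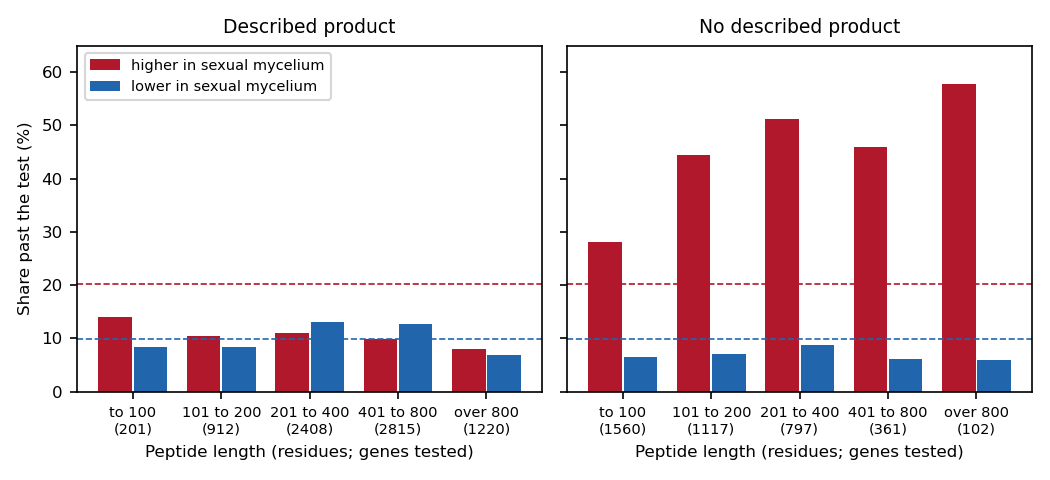
Share of tested genes higher (red) or lower (blue) in sexual mycelium by predicted peptide length, for described (left) and undescribed products (right); dashed lines give the shares over all genes, 20.3% and 9.81%. In each length class of undescribed genes the higher share (28% to 57.8%) is above 20.3%, and in each described class (7.95% to 13.9%) below it. Genes that met the minimum count through sexual mycelium alone are included.

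Genes that differed between protoapothecia and dark vegetative mycelium were looked up next. That contrast has no library in common with the contrast of sexual mycelium and pool, but both come from the same fit and share its estimate of spread. In protoapothecia against dark vegetative mycelium 4156 genes were higher (36.2%) and 3781 lower (32.9%). Of the 4156, 1705 (41.0%) were also higher in sexual mycelium than in the pool and 203 (4.88%) lower, with a median change of 0.75. Of the 3781, 164 (4.34%) were higher and 602 (15.9%) lower, with a median of -0.24. Of the 3556 genes not called in protoapothecia, 460 (12.9%) were higher and 323 (9.08%) lower (median 0.00032). The minimum count bears on the 41.0%, since genes scarce in the pool could meet it only through sexual mycelium. Of the 1435 genes that met it there alone, 1225 were higher, and how many of these are among the 1705 was not counted. The pool and dark vegetative mycelium, the vegetative sides of the 2 contrasts, correlated at 0.940 to 0.956. The number lower here among the 3781 moved with the fit, to 308 without sexual mycelium replicate 1, to 378 and 396 without its replicate 2 and pool replicate 1, and to 951 and 1107 with the 4 libraries alone and the 6 mycelium libraries. Protoapothecia form on sexual mycelium, and how much of their RNA its libraries held was not tested.

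**Figure D4:**
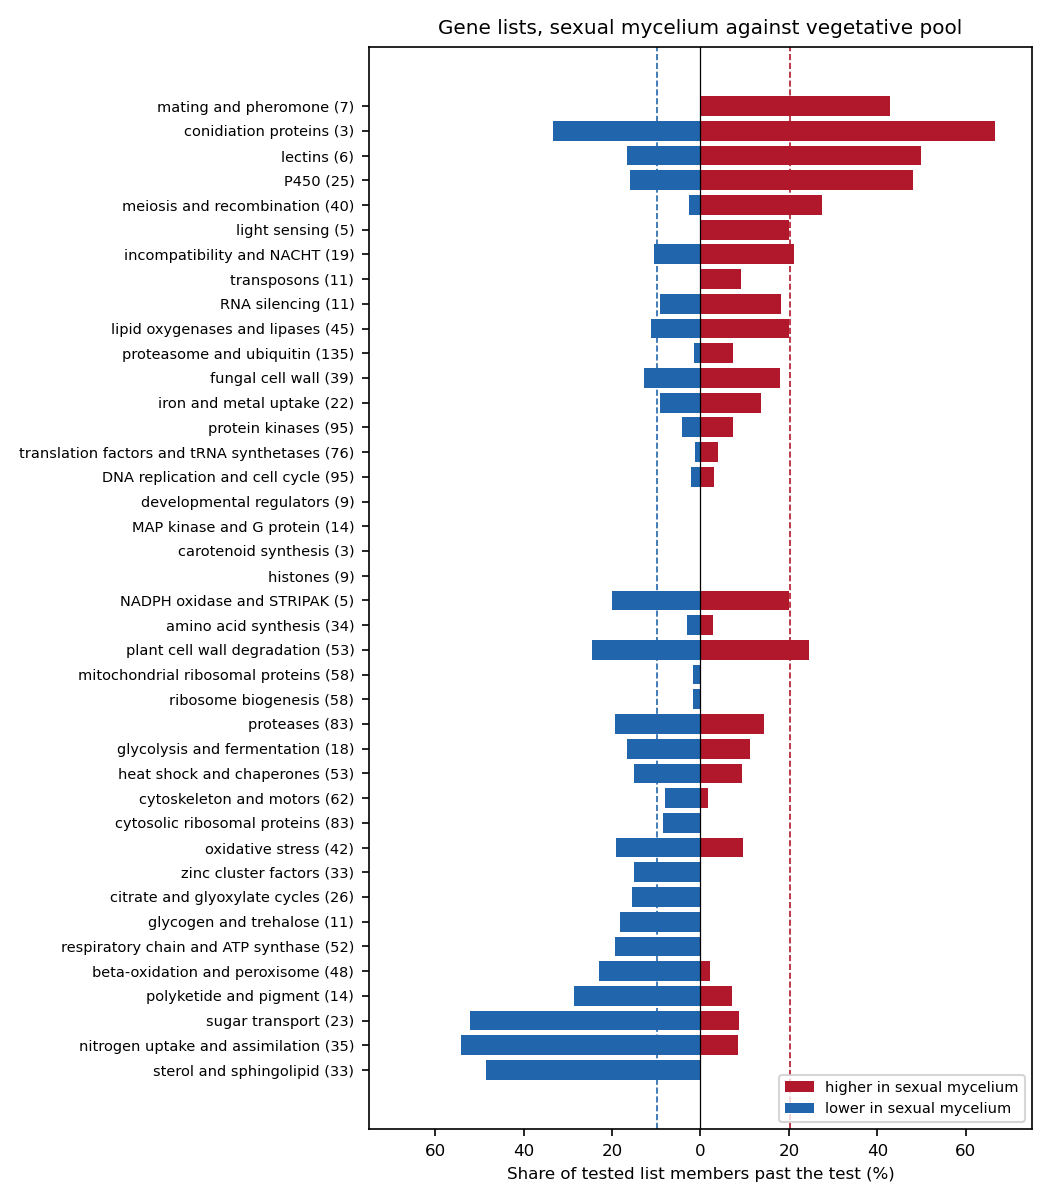
Share of the tested members of each of 40 gene lists (number tested in brackets) that were higher (red, to the right) or lower (blue, to the left) in sexual mycelium; dashed lines give the shares over all genes, 20.3% and 9.81%. Nitrogen uptake (54.3% lower), sugar transport (52.2%) and sterol and sphingolipid genes (48.5%) reach farthest to the left in this fit. The lists hold genes with a described product, of which 10.1% were higher and 11.2% lower.

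Of 35 nitrogen uptake and assimilation genes 19 (54.3%, against 9.81% of all genes) were lower and 3 higher (median -1.13). With 1 library left out, 14, 12, 14 and 16 were lower. The genes of the list import and break down nitrogen sources. Ammonium transporter 1 PCON_08415 had 41.1 and 18.7 CPM in sexual mycelium, 1069 and 912 in the pool and 7.37 and 2.38 in the dark (-5.05 ± 0.62 SE, adjusted p = 0.000412). The urea transporter PCON_09531 had 10.9 and 15.4 CPM, 475 and 315 and 3.89 and 2.31 in the same order (-4.91 ± 0.99 SE, adjusted p = 0.00513). The general amino acid permease AGP3 PCON_07075 had 16.5 and 13.0, 377 and 236 and 32.7 and 28.6 (-4.38 ± 0.32 SE, adjusted p = 3.52e-05). In all 3 the pool stood above both surface mycelia grown in WPC. The following 4 of the lower members were picked after their values were seen: the purine permease PCON_08423 at 9.79 and 5.42 CPM against 147 and 83.3 (-3.92 ± 0.41 SE, adjusted p = 0.000193), uricase PCON_09106 at 72.0 and 69.7 against 282 and 462 (-2.39 ± 0.33 SE, adjusted p = 0.000708), allantoinase PCON_06226 at 166 and 138 against 1047 and 762 (-2.57 ± 0.32 SE, adjusted p = 0.000452) and urease PCON_05563 at 42.3 and 44.7 against 465 and 328 (-3.19 ± 0.38 SE, adjusted p = 0.000333). Dark vegetative levels of these 4 were 3.82 and 4.11, 39.3 and 38.6, 24.2 and 29.7 and 72.4 and 55.0 CPM. Nitrate transporter PCON_11812 (log2 change -1.13) and nitrate reductase PCON_11813 (log2 change -1.68), also picked after their values were seen, were lower (adjusted p = 0.0153 and 0.00585). Dark vegetative mycelium against the same pool libraries gave 13 of 35 lower and 1 higher, where 1.77% of all genes were higher. The call of the urea transporter was lost without sexual mycelium replicate 1, and that of the nitrate transporter without at least 2 of the 4 libraries in turn. The 3 higher members were permease PCON_03517 at 111 and 78.3 CPM against 0.985 and 2.01 (6.0 ± 0.58 SE, adjusted p = 0.000125), amidase PCON_04520 (2.49 ± 0.59 SE, adjusted p = 0.0112) and permease PCON_11431 (2.14 ± 0.43 SE, adjusted p = 0.00479).

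The 12 largest falls of described genes included enzymes that act on amino acids. L-amino-acid oxidase PCON_05797, which releases ammonia from amino acids, had 3.57 and 7.39 CPM against 515 and 689 in the pool and 11.3 and 20.1 in the dark (-6.77 ± 0.48 SE, adjusted p = 3.4e-05). L-asparaginase PCON_06618 had 1.66 and 1.56 against 169.8 and 128, with 0.737 and 0.963 in the dark (-6.52 ± 0.99 SE, adjusted p = 0.00114). The largest fall of a described gene was PCON_08816, annotated as a demethylmenaquinone methyltransferase, at 0.666 and 1.23 CPM against 260.3 and 230.3 and 62.1 and 58.0 in the dark (-7.99 ± 0.52 SE, adjusted p = 2.15e-05). It belongs to a large family here. Of 22 genes with this description 10 were lower and none higher. Of 78 genes with the Pfam domain Methyltransf_23, a family picked after the values were seen, 28 (35.9%) were lower and 7 (8.97%) higher. Among all genes tested 9.81% were lower and 20.3% higher. The methyltransferases PCON_05110 (log2 change -5.55) and PCON_07941 (log2 change -5.66), the vanillyl-alcohol oxidase PCON_02475 (log2 change -6.42) and the phosphatidylinositol phosphodiesterase PCON_13192 (log2 change -5.80) were among the 12 largest falls, with adjusted p from 4.71e-05 to 0.00142. Galectin-3 PCON_06081, a galactoside-binding lectin, fell too, but its pool libraries differed, at 308 and 40.5 CPM against 1.43 and 5.57 in sexual mycelium (-5.62 ± 1.05 SE, adjusted p = 0.00338). PCON_13192 (169 and 30.5 CPM in the pool) and the undescribed PCON_07007 (288 and 36.6) and PCON_03255 (27.3 and 5.90), which fell by 6.29 and 6.81 on the log2 scale, had more in pool replicate 1 as well, and in all 4 genes the groups did not overlap. Named for its CPM in the pool, the metal-nicotianamine transporter YSL11 PCON_10311, an oligopeptide-transporter relative, had 7105 and 5451 CPM against 446 and 389 (-3.91 ± 0.28 SE, adjusted p = 3.5e-05). The peptide transporter ptr2 PCON_11546 had 6336 and 4135 CPM against 1012 and 761 (-2.56 ± 0.34 SE, adjusted p = 0.000629), but its model overlaps another and its counts are uncertain.

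Of 23 sugar transport genes 12 (52.2%, against 9.81% of all genes) were lower and 2 higher (median -1.06). The lower count was 5, 6, 9 and 10 with 1 library left out. The high-affinity glucose transporter PCON_01309 had 7.51 and 11 CPM against 78.1 and 91.2 in the pool and 59.3 and 68.7 in the dark (-3.19 ± 0.47 SE, adjusted p = 0.000955). STL1-type sugar transporters went both ways: PCON_07977 was lower at 13.8 and 15.3 against 126 and 91.8 (-2.90 ± 0.32 SE, adjusted p = 0.000236) and PCON_02435 at 0.618 and 1.45 against 19.5 and 11.6 (-3.89 ± 1.01 SE, adjusted p = 0.0164), while PCON_06458 was higher at 64.7 and 142 against 2.58 and 3.24 (5.15 ± 1.03 SE, adjusted p = 0.00492) and PCON_13467 at 536 and 359 against 235 and 272 (0.82 ± 0.26 SE, adjusted p = 0.0426). The dark level of PCON_07977 was 51.2 and 85.1 CPM, so that both it and PCON_01309 lay nearer to the pool in the dark than the ammonium and urea transporters did. The call of PCON_13467 was lost with median-ratio scaling, and that of PCON_02435 without at least 2 of the 4 libraries in turn.

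Of 33 sterol and sphingolipid genes 16 (48.5%, against 9.81% of all genes) were lower, none was higher and 17 did not pass the test (median -0.52). Leaving out 1 library gave 6, 7, 9 and 9 lower genes. Squalene monooxygenase PCON_03325, an early and oxygen-dependent step of the ergosterol route, had 34.7 and 30.2 CPM against 126 and 169 in the pool and 29.4 and 33.3 in the dark (-2.18 ± 0.30 SE, adjusted p = 0.000753). C-5 sterol desaturase PCON_01687 had 36.1 and 38 against 129 and 179 and 33.6 and 39.5 (-2.05 ± 0.25 SE, adjusted p = 0.000371). The ceramide fatty acid hydroxylase PCON_01991 had 74.5 and 61.9 against 156 and 273 and 60.5 and 57.8 (-1.65 ± 0.31 SE, adjusted p = 0.00326). In these 3 genes sexual and dark vegetative mycelium lay close together and below the pool. The 13 others among the 16 lay between -0.66 and -2.02 on the log2 scale and included squalene synthase PCON_11727, lanosterol synthase PCON_13554 and lanosterol 14-alpha demethylase PCON_04971, named after their values were seen.

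Most energy metabolism genes past the test were lower. Of 52 respiratory chain and ATP synthase genes 10 were lower (19.2%) and none higher, of 48 beta-oxidation and peroxisome genes 11 lower (22.9%) and 1 higher, and of 26 citrate and glyoxylate cycle genes 4 lower (15.4%) and none higher, against 9.81% lower of all genes, with medians of -0.52, -0.38 and -0.21. Both models of alternative oxidase, the bypass of the cytochrome chain, had the largest falls of the first list: PCON_03749 had 13.9 and 9.73 CPM against 148 and 483 (-4.74 ± 0.87 SE, adjusted p = 0.00315) and PCON_11655 8.46 and 12.4 against 71.1 and 41.9 (-2.43 ± 0.63 SE, adjusted p = 0.0168). The 8 others were subunits of complexes I, III, IV and V between -0.63 and -1.16. The carnitine acyltransferase PCON_02608, which carries acyl groups between compartments, had 51.1 and 52.7 CPM against 369.6 and 307 (-2.71 ± 0.29 SE, adjusted p = 0.00021), and isocitrate lyase PCON_11839, the entry of the glyoxylate bypass, 86.3 and 99.5 against 304 and 186 (-1.40 ± 0.30 SE, adjusted p = 0.00641). Glycolysis and fermentation had 3 lower and 2 higher genes of 18. Pyruvate decarboxylase PCON_03112, which makes acetaldehyde in fermentation, had 7.18 and 26.4 CPM against 388 and 403 and 54.7 and 109 in the dark (-4.55 ± 1.16 SE, adjusted p = 0.0152). A second glyceraldehyde-3-phosphate dehydrogenase PCON_06032 was higher, at 7.85 and 34.7 against 1.03 and 0.713 (4.59 ± 0.78 SE, adjusted p = 0.00203). Of 83 cytosolic ribosomal protein genes 7 were lower and none higher (8.43%, median -0.55), the largest fall being that of L34-B PCON_13650 (log2 change -1.36, adjusted p = 0.00726). These counts moved strongly with the fit. With the 4 libraries alone and the 6 mycelium libraries, 42 and 58 ribosomal, 22 and 28 respiratory and 19 and 20 beta-oxidation genes were lower. Leaving out 1 library gave 0, 6, 1 and 1 lower ribosomal genes, and the fit with the replicate number as a block gave 1. The 4 fits without 1 library gave 1, 6, 2 and 3 lower respiratory genes, 3, 4, 4 and 5 beta-oxidation genes, 1, 3, 1 and 5 citrate cycle genes and 1, 2, 2 and 2 glycolysis genes. The calls of isocitrate lyase, pyruvate decarboxylase and PCON_11655 were each lost without sexual mycelium replicate 1. Further lists were counted in the same way: mitochondrial ribosomal proteins (1 lower of 58), ribosome biogenesis (1 lower of 58), amino acid synthesis (1 higher and 1 lower of 34), histones (0 of 9), mitogen-activated kinases with G proteins (0 of 14) and DNA replication (3 higher and 2 lower of 95), translation factors (3 higher and 1 lower of 76), cytoskeleton and motors (1 higher and 5 lower of 62), glycogen and trehalose (2 lower of 11) and transposons (1 higher of 11). With the 4 libraries alone and the 6 mycelium libraries, 9 and 13 amino acid synthesis, 7 and 9 biogenesis, 6 and 8 translation, 13 and 17 cytoskeleton and 6 and 6 glycogen genes were lower. Over all genes the main fit gave 20.3% higher and 9.81% lower. A gene that did not pass the test is not shown to be equal in both groups.

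Proteases and plant cell wall enzymes changed in both directions. Of all tested genes with a described product 10.1% were higher and 11.2% lower. Of 83 proteases 12 were higher (14.5%) and 16 lower (19.3%), against 20.3% and 9.81% of all genes (median -0.11), and 9, 11, 12 and 14 were lower with 1 library left out. Beside the subtilisin above, the subtilisin pepC PCON_07960 had 69.8 and 89.8 CPM against 0.0938 and 0.0648, where the pool value is 3 counts (adjusted p = 0.000167), whereas the neutral protease PCON_11462 had 1.19 and 1.11 CPM against 113 and 82.9 in the pool and 0.134 and 0.0642 in the dark (-6.41 ± 0.39 SE, adjusted p = 1.53e-05). The metalloprotease PCON_09816 (log2 change -5.52) and alkaline protease PCON_09507 (log2 change -3.86) were lower as well (adjusted p = 8.56e-05 and 0.00144). Of 53 plant cell wall degradation genes 13 were higher and 13 lower (24.5% each, against 20.3% and 9.81%). Leaving out each library in turn, 10, 6, 6 and 8 were higher and 7, 11, 11 and 11 lower. The beta-glucosidases PCON_09067 (2.04 and 4.61 CPM against 25.0 and 38.9, 142 and 166 in the dark, -3.25 ± 0.42 SE, adjusted p = 0.000504) and PCON_12780 (log2 change -2.88) release glucose from cello-oligosaccharides and were lower, and the glucosidase agdC PCON_06200 was lower at log2 change -2.32 (adjusted p = 0.00173 and 0.000127). Cutinase PCON_03950, an esterase that cleaves plant cuticle, was higher at 343 and 437 CPM against 37 and 43.7 (3.27 ± 0.29 SE, adjusted p = 8.91e-05), as were acetylxylan esterase PCON_09784 (log2 change 3.69) and cellobiose dehydrogenase PCON_04062 (log2 change 2.29), the last with 78.7 and 162 CPM in the dark (adjusted p = 0.00146 and 0.0135).

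Of 47 tested models with the Pfam domain p450, 18 were higher (38.3%) and 15 lower (31.9%), with a median of 0.37. The cytochrome P450 list is narrower, since 29 of its 56 matches were left out by description. Of its 25 tested genes 12 were higher (48%) and 4 lower (16%), against 20.3% and 9.81% of all genes, with a median of 1.31. The higher count was 10, 10, 7 and 10 with 1 library left out. PCON_04348, of the type named P450 67, had 273 and 122 CPM against 4.5 and 3.31 and 0.134 and 0.257 in the dark (5.65 ± 0.46 SE, adjusted p = 5.6e-05), and PCON_03426 28.2 and 43.9 against 0.234 and 0.324 (7.0 ± 0.59 SE, adjusted p = 6.64e-05). PCON_02777 had 35.9 and 107 CPM with 3 counts in the pool (adjusted p = 0.000254). PCON_03716, of the same name as PCON_04348, was the largest of the lower ones at 0.999 and 1.37 against 82.8 and 116 (-6.37 ± 0.69 SE, adjusted p = 0.000216). Among lectins, 3 of 6 were higher and 1 lower, the second fucose-specific lectin PCON_04232 having 1499 and 1167 CPM against 215 and 304 but 1383 and 1336 in the dark (2.36 ± 0.36 SE, adjusted p = 0.00111), and PCON_12683 351 and 249.5 against 14.6 and 24.9 (3.93 ± 0.51 SE, adjusted p = 0.000535). Tyrosinase PCON_01775, a phenol-oxidising pigment enzyme, was lower at 105 and 63.0 CPM against 926 and 714 (-3.29 ± 0.37 SE, adjusted p = 0.000248), 1 of 4 lower and 1 higher of 14 polyketide and pigment genes. Argonaute proteins, the small-RNA-binding core of RNA silencing, were higher in PCON_14146 (465 and 604 CPM against 163 and 171, 1.68 ± 0.28 SE, adjusted p = 0.00176) and PCON_13881 (359 and 396 against 115 and 122, 1.67 ± 0.25 SE, adjusted p = 0.00114) and lower in PCON_08335 (33.2 and 49.3 against 93.9 and 112, 395 and 393 in the dark, -1.32 ± 0.43 SE, adjusted p = 0.044), out of 11 silencing genes. The last call was lost with median-ratio scaling. Of the 11 silencing genes 18.2% were higher and 9.09% lower, near the 20.3% and 9.81% of all genes. Of 22 metal uptake genes 3 were higher (13.6%) and 2 lower (9.09%). The copper transporter ctr4 PCON_11039 had 71.8 and 100.4 CPM against 1.78 and 0.713 (6.06 ± 0.60 SE, adjusted p = 0.000135), and a second, CTR1 PCON_05505, 17.6 and 18.3 with 1 count in the pool (adjusted p = 0.000713). The zinc transporter PCON_08014 was lower at 41.2 and 47.7 CPM, though its pool libraries differed at 705 and 130.5 (-3.23 ± 0.66 SE, adjusted p = 0.0055).

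Over all genes 20.3% were higher and 9.81% lower, to be set beside each list of this paragraph. Of 53 heat shock and chaperone genes 8 were lower (15.1%) and 5 higher (9.43%), and 4 of the lower ones were small heat shock proteins of 30 kDa. Leaving out 1 library, 3, 3, 7 and 4 were lower and 4, 2, 2 and 2 higher. Of the small heat shock proteins, PCON_10958 had 17.0 and 16.3 CPM against 69.2 and 167 (-2.82 ± 0.55 SE, adjusted p = 0.00428), and PCON_02808 had 188 and 178 against 994 and 1395 with 389 and 705 in the dark (-2.71 ± 0.62 SE, adjusted p = 0.00955). The co-chaperone DnaJ PCON_08598 was higher at 122 and 218 against 26.5 and 26.3 (2.69 ± 0.33 SE, adjusted p = 0.000371). Of 42 oxidative stress genes 8 were lower and 4 higher, or 5, 6, 6 and 7 and 3, 3, 2 and 2 with 1 library left out. Thioredoxin-1 PCON_06978, a small disulphide reductase, had 94.7 and 245 CPM against 0.234 and 0.194 (9.57 ± 1.79 SE, adjusted p = 0.00348), a call that DESeq2 did not make, while superoxide dismutase PCON_08184, picked after its values were seen, had 228 and 204 against 1574 and 1679 (-2.91 ± 0.27 SE, adjusted p = 0.000112). Of 135 proteasome and ubiquitin genes 10 were higher (7.41%) and 2 lower (1.48%), with a median of -0.01. With the 4 libraries alone and the 6 mycelium libraries, 17 and 21 were higher. Of 33 zinc cluster factors, a fungal family of transcription factors, 5 were lower and none higher, and of 95 protein kinases 7 were higher, GIN4 PCON_07378 most among those with at least 10 CPM (45.4 and 42.7 CPM against 1.45 and 0.778, 5.27 ± 0.53 SE, adjusted p = 0.00015), and 4 lower. Of 19 vegetative incompatibility genes 4 were higher (21.1%) and 2 lower (10.5%), and of 45 lipase and lipid oxygenase genes 9 were higher (20%) and 5 lower (11.1%). Both lists stood near the 20.3% and 9.81% of all genes, while genes with a described product had 10.1% and 11.2%. With 1 library left out, 1, 1, 1 and 2 lipase and oxygenase genes, 1, 2, 2 and 1 incompatibility genes and 5, 3, 4 and 4 kinases were higher, and 1, 3, 2 and 2 zinc cluster factors were lower.

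Along the scaffolds, genes past a fold of 2 were looked at with their neighbours. Of the 1829 higher genes 47.0% had at least 1 adjacent gene model also past a fold of 2 upward. Of the 545 lower genes 20.6% had one downward. More genes were past a fold of 2 upward (15.9% of those tested) than downward (4.74%), which alone gives more like neighbours upward. The share under a random gene order was not tested, so these shares and the runs below do not compare clustering between directions. Runs of 4 or more such neighbours numbered 52 upward, with 237 genes of which 193 have no described product, and 2 downward, with 11 genes. The longest, 9 undescribed genes from PCON_03386 to PCON_03394, lies on scaffold 145 from 83649 to 103209. The build behind the coordinates is not given in the sources used here.

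The longest downward run, 7 genes on scaffold 604 from 38640 to 57065, carries annotations of terpene and polyketide synthesis. Copalyl diphosphate synthase PCON_11419, a diterpene cyclase of the gibberellin route in plants and fungi, had 4.14 and 5.01 CPM against 98.4 and 104 and 49.3 and 30.7 in the dark (-4.46 ± 0.66 SE, adjusted p = 0.00104). The 2 models of ent-kaurene oxidase, a P450 of the same route, had 5.04 and 5.68 against 226 and 264 for PCON_11420 (-5.51 ± 0.53 SE, adjusted p = 0.000127) and 3.85 and 4.42 against 118 and 129 for PCON_11421 (-4.90 ± 0.53 SE, adjusted p = 0.000204). The 4 further genes, PCON_11422 (described as solanapyrone synthase), PCON_11423 (an aldehyde reductase), PCON_11424 and PCON_11425, fell by between 2.13 and 4.24 on the log2 scale. The other downward run, scaffold 294 from 261041 to 269483, holds the agmatinase PCON_06951 (5.33 and 7.47 CPM against 34.9 and 30.7, -2.36 ± 0.29 SE, adjusted p = 0.000447), which releases urea from agmatine, the transporters PCON_06952 and PCON_06953 and the undescribed PCON_06954. The models PCON_06953 and PCON_06954 overlap another model, so their counts are uncertain. Dark levels lay below both, at 0.804 and 0.834 CPM for the agmatinase and 4.29 and 5.07 for PCON_06952, whose sexual mycelium and pool values were 15.4 and 18.8 and 173 and 154.

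Upward, 6 described genes stood side by side on scaffold 1449 from 1001 to 18172. The 2-epi-5-epi-valiolone synthase PCON_03344, a sugar phosphate cyclase, had 1437 and 1509 CPM against 46.2 and 52.9 (4.89 ± 0.60 SE, adjusted p = 0.000419), and the adjoining catechol O-methyltransferase PCON_03345 453 and 366 against 12.1 and 18.3 (4.75 ± 0.45 SE, adjusted p = 0.000123). PCON_03340, named after a subunit of linear gramicidin synthase, a bacterial peptide synthetase, had 11.8 and 20.2 against 0.797 and 0.194 (4.95 ± 0.85 SE, adjusted p = 0.00221). The glyoxal reductase PCON_03341, btn1 PCON_03342 and a second O-methyltransferase PCON_03343 lay between 2.70 and 5.48. On scaffold 532, from 81542 to 99881, 6 genes with the choline transporter PCON_10543 (391 and 225 CPM against 24.4 and 47.9, 3.09 ± 0.45 SE, adjusted p = 0.000969) among them were higher.

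**Figure D5:**
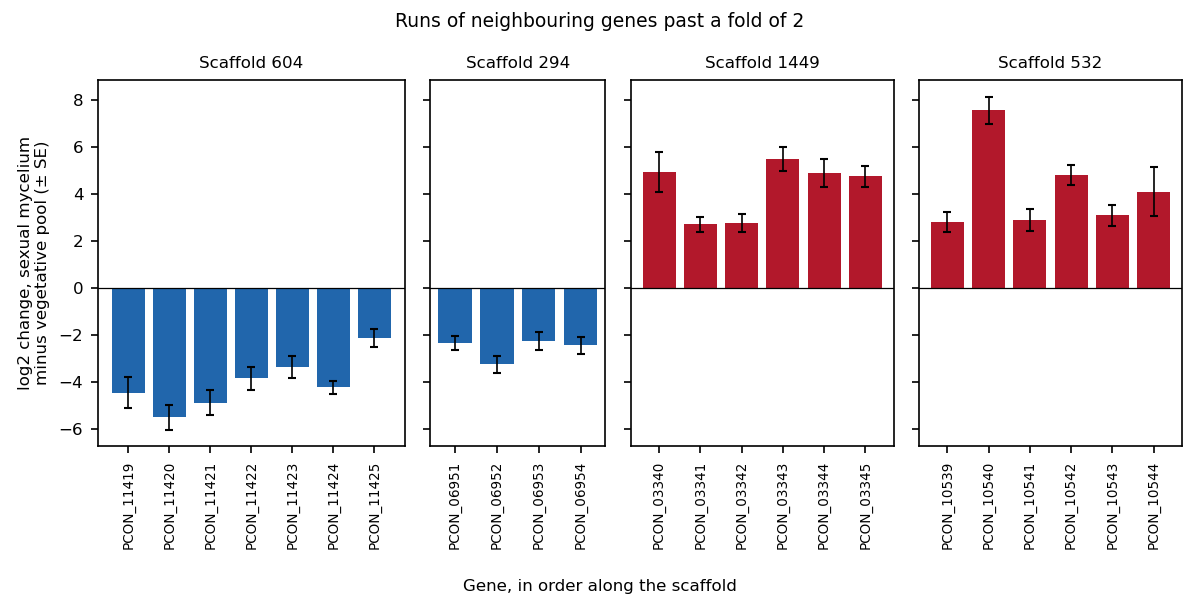
Log2 change (sexual mycelium minus pool, bars, ± SE) of the genes of 4 runs of neighbours past a fold of 2, in order along their scaffolds. The 7 genes on scaffold 604 and the 4 on scaffold 294 are all lower, and the 6 on scaffold 1449 and the 6 on scaffold 532 all higher.

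The authors' deposited table gives their own consensus calls for this comparison. Among the 11493 genes it marks 2611 as higher, of which 2257 (86.4%) were also called here, and 821 as lower, of which 740 (90.1%) were also called. These are 96.9% of the higher and 65.6% of the lower genes called here, and no gene was called in opposite directions in the authors' deposited table and here. Its stringent calls number 2151 higher and 399 lower among the same genes.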

How the data were processed

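The deposited table holds raw read counts per gene model for 9 libraries, made by the authors. Per the submitters' processing notes CASAVA 1.8.2 and DESeq were used, while none of these sources names an aligner, counter, strand setting or genome build, which limits the reading of similar, overlapping and antisense models. The mycelium reads come from an earlier study, per the series' design text. The deposited score columns are the authors' consensus calls (-1, 0 or 1) and were copied, not recomputed. Lengths, product names and predictions are from the deposited annotation.

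Genes with at least 10 counts in 2 of the 4 compared libraries were kept (11493). Counts of all 9 libraries in 4 groups were fitted in 1 model with edgeR 4.0.16 (R 4.3.3, limma 3.58.1): TMM scaling, robust quasi-likelihood test, and a test against a fold of 2, with Benjamini-Hochberg adjustment over all genes and a threshold of 0.05. The procedure was tested on simulated data. DESeq2 1.42.0 was an alternative. Levels are CPM from the same scaling and are not corrected for length, so choosing genes by CPM favours long ones and is no ranking of expression. The SE is the size of the log2 change divided by the square root of the quasi-likelihood F statistic. It includes the spread between libraries that the fit estimated over all 9, and is approximate, above all for genes with few counts in a group. Floors cover counting error only.

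Named genes are the 12 largest changes in each direction (at least 10 CPM in the higher group, described, libraries not overlapping, no overlapping model), up to 3 called genes per list and direction, all members of 5 short lists, the 2 largest undescribed changes in each direction, the 5 described genes with the highest CPM per group, and runs of at least 4 neighbours. Others are said to be chosen after their values were seen. The members, the 40 gene lists and this rule were chosen with earlier results of these data known.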

Additional observations from a re-analysis of the deposited data

How the results depend on the processing

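The counts of higher genes, at either threshold, stayed within 1.5 times of the main count under all 12 settings (1626 to 2869 of 11493 genes, against 2329). The count of lower genes (1128) did not: it was 1777 with the 4 compared libraries alone, 2080 with the 6 mycelium libraries, and 523 to 768 when 1 library was left out in turn. Past a fold of 2 the lower count (545) ran from 295 to 448 with 1 library left out. Genes lower in protoapothecia that were also lower in sexual mycelium numbered 602, against 951 with 4 libraries, 1107 with the 6 mycelium libraries and 308 to 402 with 1 library left out. The cause was not tested, except that leaving out a library leaves a group with 1 sample, taken to vary like the other groups.

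Of 130 named genes past the test, 26 lost the call under some setting and none changed direction. In 25 of them it was lost without at least 1 library. Beside those given with their values, these were PCON_02808, PCON_08014, PCON_11727, PCON_13554, PCON_13650, PCON_04062, PCON_04520, PCON_06717 and PCON_03394. Of the 26 named genes not past the test, 5 passed under some setting.

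With the replicate number as a block, 2099 genes were higher and 937 lower. The numbers do not pair the samples: deviations of same-numbered libraries correlated at -0.165 between sexual mycelium and the pool. Crossing the numbers, an alternative added after the data were seen, gave 2186 higher and 960 lower. With the block 3 named genes lost their call.

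At 1 to 3 pool counts no fold is given.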

Other observations

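Protein families by Pfam domain, some of whose members are also in the gene lists, are given here beside the 20.3% higher and 9.81% lower of all genes. They were picked after their values were seen and are given as counts, with no test. Of 11 models with the chitin-binding domain CBM_14, 6 were higher in sexual mycelium and 3 lower, and of 13 subtilisin-type peptidases (Peptidase_S8) 6 were higher and 4 lower. Of 12 models with the TRI12 transporter domain, found in toxin efflux pumps, 7 were lower and 1 higher, and of 15 with the GMC oxidoreductase C-terminal domain 7 were lower and 2 higher. Of 61 models with the Zn_clus domain 12 (19.7%) were lower and 2 (3.28%) higher.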
